A study of Mus musculus with 18 samples.

Results

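In mouse liver, 6 circular RNAs (circRNAs) listed for genes of secreted plasma proteins and of a hepatocyte protease were examined, out of 474 circRNAs in the deposited table. The genes are Kng2, Plg, Mug1, Mug2, Crp and Hpn, and a circRNA was taken when its ends lie at exon ends of, or inside, 1 of them on the mouse genome build GRCm38. The 6 genes were chosen by their function from the hosts of listed circRNAs, with earlier results of these libraries known, and a circRNA is listed only where it was above 0 in at least 9 of the 18 libraries. The levels below are therefore a description, and being detected is not a finding. Kng2, Plg, Mug1 and Hpn each gave 1 circRNA with both ends at exon ends of a single transcript. A further circRNA has 1 end in Mug1 and 1 in Mug2, and the last lies inside the annotated span of Crp without touching an exon.

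Livers came from male C57BL/6 mice bought at 6 weeks of age, with 6 mice and 6 libraries in each of 3 groups. Control mice had corn oil injected into the abdomen at 10 µl per g body weight, 2 times a week, and distilled water by mouth. Mice of the Cirrhosis group had 10% carbon tetrachloride (CCl4) in corn oil, a toxin that hepatocytes convert to radicals, injected in the same volume and rhythm, with the same water. The Cirrhosis-PTH group had the CCl4 injections together with Pien Tze Huang (PTH), a traditional Chinese medicine, by mouth at 0.25 mg per g. Tissue was taken after 12 weeks, so PTH was given only on top of CCl4 and no library shows PTH alone.

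Hepatocytes make most of the proteins of blood plasma, among them the kininogens that carry bradykinin, the clot-dissolving zymogen plasminogen, the broad protease traps of the macroglobulin family and the pentraxins of the acute phase. They also hold serine proteases such as hepsin in their own membrane. A circRNA forms when the splicing machinery joins the end of an exon back to the start of the same or an earlier exon, and reads across that back-splice junction are what identify it; such a ring lacks the free ends by which linear mRNA is degraded.

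The junctions that define the circRNAs are printed 5′ to 3′, because each is the only stretch by which a read is assigned to the ring and not to the linear mRNA. Lower case is the last 20 bases of the final exon and capitals are the first 20 bases of the first exon, read from the GENCODE M21 transcripts of GRCm38.
Kng2 (exon 9 to exon 5): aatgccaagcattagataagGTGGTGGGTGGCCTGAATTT
Plg (exon 17 to exon 16): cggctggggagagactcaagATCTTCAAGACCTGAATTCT
Mug1 (exon 16 to exon 15): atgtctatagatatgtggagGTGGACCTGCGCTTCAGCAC
Hpn (exon 4 to exon 3): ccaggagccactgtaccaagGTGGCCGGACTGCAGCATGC
Mug2 exon 18 to Mug1 exon 19: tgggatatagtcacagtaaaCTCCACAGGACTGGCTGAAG
The first 4 of these 40-base junctions occur in 0 of the 141767 annotated linear transcripts searched. Of the 435 listed circRNAs that could be placed in 1 transcript, 0 had a junction that also occurs in a linear transcript. That was close to fixed in advance, since each joins the end of an exon back to the same or an earlier exon. The junction between Mug2 and Mug1, which was not among the 435, does occur in linear RNA: it is part of 2 annotated Mug1 transcripts.

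That match extends over the 80 bases around the seam. The line for the listed junction and the line for the normal exon 18 to exon 19 joint of Mug1 are printed together with the same joint of Mug2, and capitals mark the bases at which Mug2 differs from Mug1.
listed Mug2 to Mug1: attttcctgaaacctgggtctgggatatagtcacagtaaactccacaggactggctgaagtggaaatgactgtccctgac
linear Mug1: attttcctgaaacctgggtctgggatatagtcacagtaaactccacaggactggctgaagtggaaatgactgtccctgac
linear Mug2: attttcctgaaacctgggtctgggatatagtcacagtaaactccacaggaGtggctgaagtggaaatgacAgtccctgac
The listed and the linear Mug1 lines differ at 0 of 80 bases. Linear Mug2 differs from linear Mug1 by C51G and T71A, with positions counted from 1 at the 5′ end of the printed line, Mug1's base first. Upstream of the seam the ends of exon 18 are identical in both genes for 56 bases, and downstream the starts of exon 19 are identical for 10 bases. Within these 80 bases a read of the listed circRNA and a read of ordinary Mug1 mRNA cannot be told apart, and which of them gave the 30 reads was not tested. It was the only circRNA of the 474 with ends at exon ends of 2 genes. Its ends lie 189347 bp apart (chr6:121874392-122063738, both genes on the plus strand), with the pseudogene Mug4-ps between the genes.

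The Mug1 circRNA of exons 15 to 16 is better separated from Mug2, whose transcript is 93.4% identical to that of Mug1 over its length. Exon 15 is 94% and exon 16 is 93.1% identical between the genes. The 80 bases across the junction are printed with the Mug2 counterpart, whose differing bases are in capitals.
Mug1: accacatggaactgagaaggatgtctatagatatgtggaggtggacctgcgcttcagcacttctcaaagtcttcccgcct
Mug2 counterpart: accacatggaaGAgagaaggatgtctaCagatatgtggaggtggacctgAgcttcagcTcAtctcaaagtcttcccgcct
These differ at 6 bases (C12G, T13A, T28C, C50A, A59T and T61A, counted from the 5′ end, Mug1's base first). A read reaching any of those positions on the junction carries the difference, while a shorter overlap may not. The comparison was with Mug2 only, and not with Mug4-ps, Gm10319 or Mug-ps1 in the same cluster. The Kng2 junction has a similar relative, since Kng1 is a close copy: 2 of its 40 bases differ in Kng1, whose exons 5 and 9 are 95.4% and 97.7% identical to those of Kng2.

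**Figure D1:**
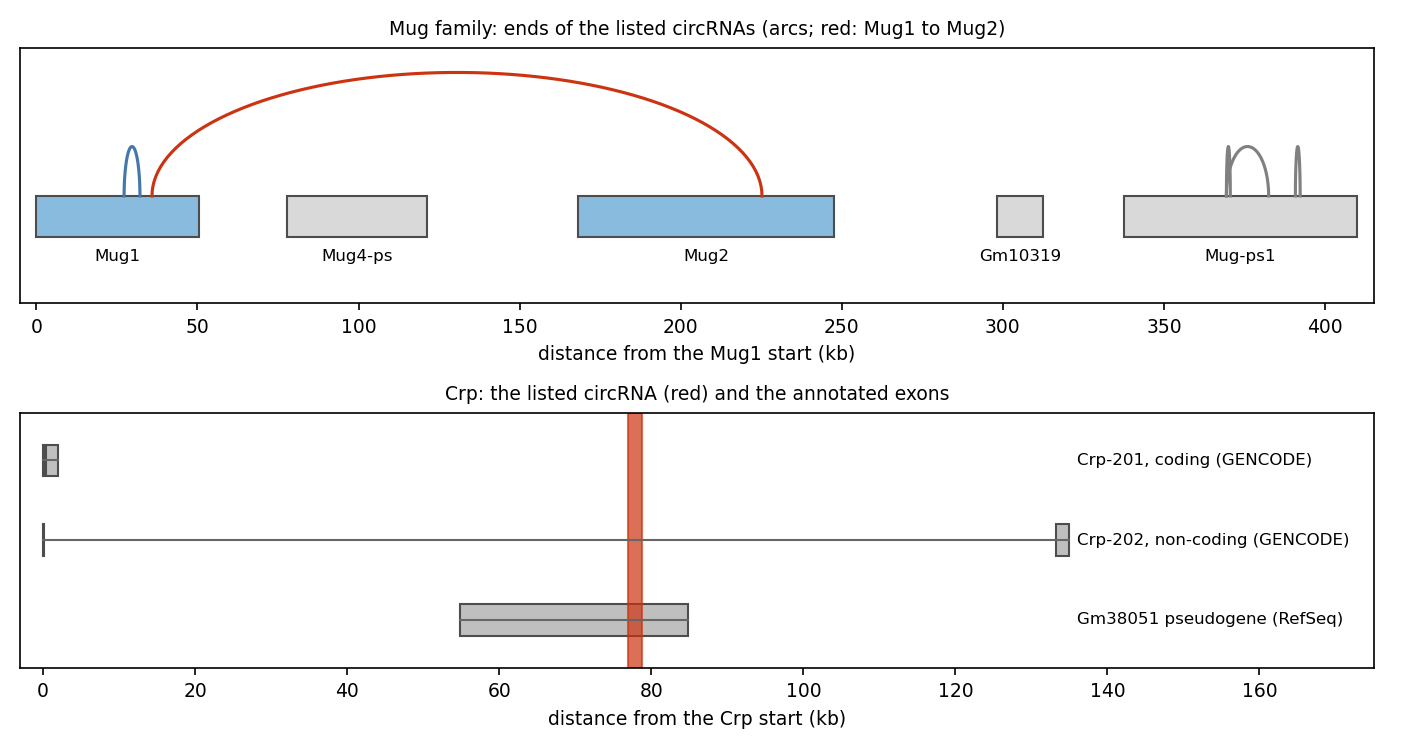
Upper panel: genes of the Mug family (boxes) and the ends of the listed circRNAs (arcs) by distance from the start of Mug1 in kb, with the circRNA joining Mug2 and Mug1 in red. Lower panel: annotated exons at Crp by distance from its start in kb, with the listed circRNA in red, 74987 bp past the last exon of the coding Crp transcript and within the RefSeq pseudogene Gm38051.

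The circRNA listed in Crp held no annotated Crp exon. Crp is a pentraxin that binds phosphocholine on damaged cells and bacteria, and in mice it is a minor acute-phase protein. The coding transcript has 2 exons, the second at chr1:172698414-172699962, and the circRNA at chr1:172774950-172776770 starts 74987 bp beyond it. It lies in the long intron of a non-coding transcript of Crp, whose second exon is 54512 bp further on. RefSeq places the Crp gene at chr1:172698056-172699966 and a pseudogene, Gm38051, over the circRNA at chr1:172752935-172782907. Neither end of the 1821-bp span is an annotated exon end, which was so for 5 listed circRNAs inside genes. It is called the circRNA in the Crp span here, its values are no measure of Crp, and its strand is not known from the table.

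The other circRNAs hold whole coding exons of their hosts. In Kng2, which encodes a kininogen, exons 5 to 9 of 11 (chr16:22997023-23004039, minus strand) make a 561-bp ring that codes for residues 188 to 374 of 462. This is part of the heavy chain, with its cystatin-like inhibitor domains, and it ends 7 residues before bradykinin, which exon 10 encodes from residue 381. In Plg, the gene of plasminogen, exons 16 to 17 of 19 (chr17:12411461-12414284, plus strand) make a 248-bp ring for residues 628 to 711 of 812. Plg's protease domain is thus represented in part: the catalytic aspartate is encoded in exon 16 inside the ring, whereas the activation site (exon 14), the catalytic histidine (exon 15) and the catalytic serine (exon 19) are outside it.

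Mug1 encodes murinoglobulin, a single-chain relative of alpha-2-macroglobulin that traps proteases with a bait region and a thioester. Its exons 15 to 16 of 36 (chr6:121865734-121870650, plus strand) make a 309-bp ring for residues 560 to 662 of 1476, and the thioester is encoded later, in exon 24. Hpn encodes hepsin, a serine protease anchored in the plasma membrane near its N-terminus. Exons 3 to 4 of 13 (chr7:31108965-31109192, minus strand) make a ring of 144 bp for residues 34 to 82 of 445, printed whole because it is the shortest of the rings here, with exon 3 in capitals and exon 4 in lower case.
Hpn circle: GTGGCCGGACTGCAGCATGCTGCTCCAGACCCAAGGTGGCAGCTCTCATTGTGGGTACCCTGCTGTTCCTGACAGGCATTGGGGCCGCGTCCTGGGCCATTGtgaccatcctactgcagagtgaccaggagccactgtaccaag
The ring covers the most hydrophobic window of 19 residues in hepsin (residues 54 to 72, encoded from exon 3 into exon 4). It does not cover the activation site and catalytic histidine (exon 8) or the catalytic serine (exon 12). The Kng2, Mug1 and Hpn rings have a length that is a multiple of 3, and the Plg ring does not. All 4 rings, Plg included, hold 0 stop codons in the host's reading frame once round. Their exons are wholly coding, so this was nearly fixed in advance and translation was not tested. Among all placed circRNAs, 35.2% had a length that is a multiple of 3. These rings hold 2 to 5 exons, against a median of 3 exons and 306 bp over all placed circRNAs.

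**Figure D2:**
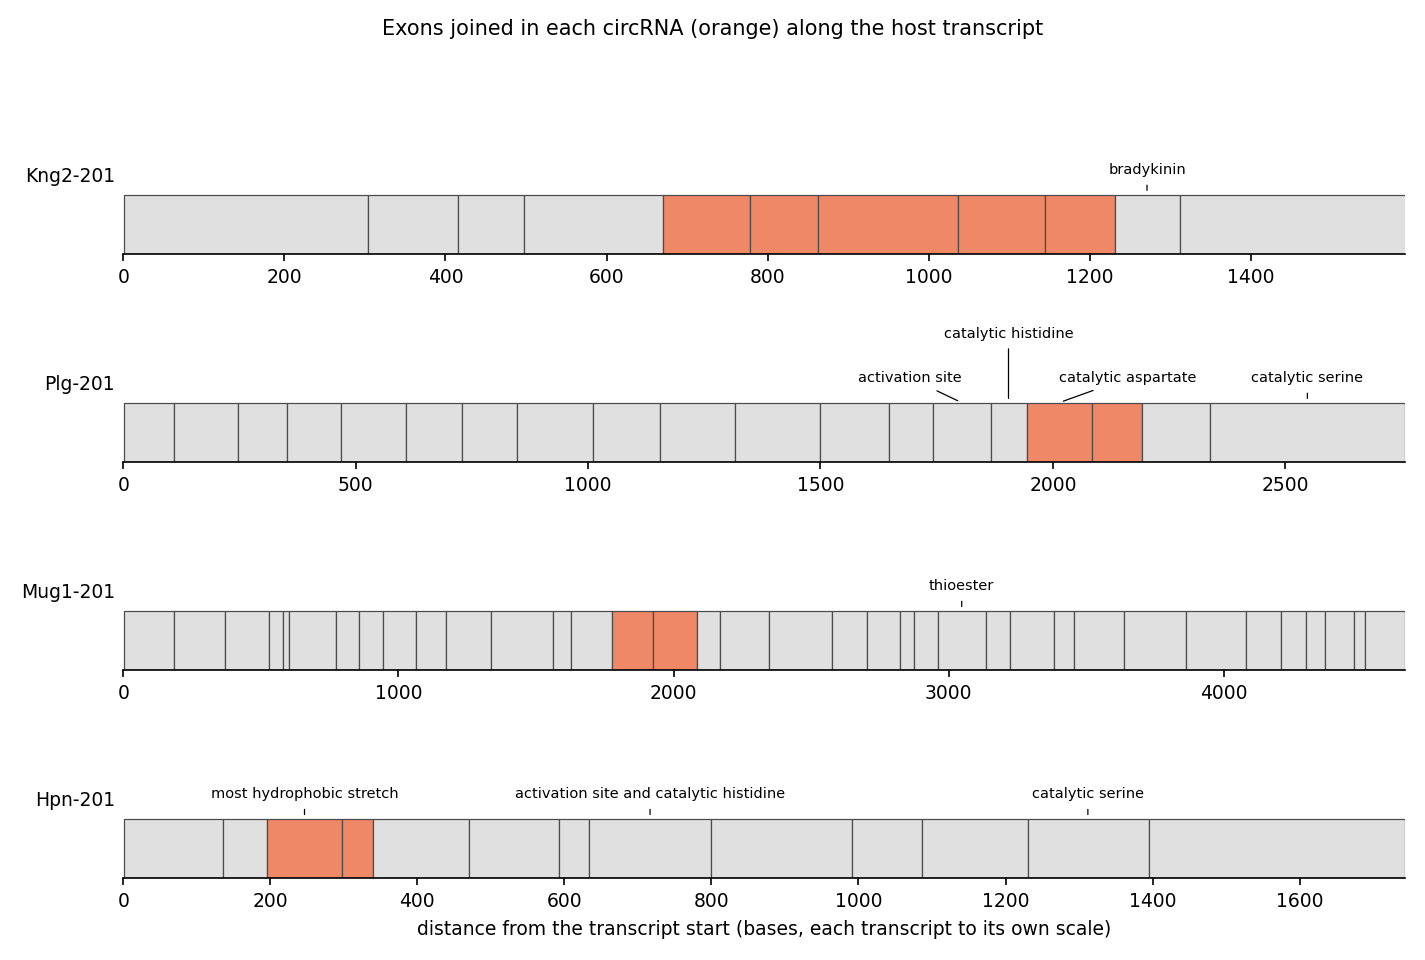
Exons of the 4 host transcripts by distance from the transcript start in bases, each to its own scale, with the exons in the circRNA in orange. The exon in which each named protein feature starts is marked. The Kng2 ring ends 1 exon before bradykinin, the Plg ring holds 1 of the 3 catalytic residues, and the Hpn ring holds the most hydrophobic stretch.

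The introns that flank these rings were short beside those of other listed circRNAs. Upstream and downstream introns of Kng2 measure 7957 and 8697 bp. Those of Plg measure 497 and 4352 bp, those of Mug1 1864 and 654 bp, and those of Hpn 1521 and 5335 bp. Over all placed circRNAs the medians were 11695 bp upstream and 10387 bp downstream, so all 8 introns lie below the median of their side. No test was made of this, since 4 rings do not make a sample of hosts.

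All 6 circRNAs were scarce. Levels are in CPM, junction reads that the authors scaled to a common library total, and every deposited value could be turned back into whole reads. Together the circRNAs had 231 of 38784 recovered reads. The highest mean over the 18 libraries was that of Hpn at 0.527 CPM (56 reads), rank 144 of 474. Mug1 followed at 0.333 CPM (32 reads, rank 271) and Kng2 at 0.323 CPM (45 reads, rank 281). The circRNA in the Crp span had 0.255 CPM (31 reads, rank 355), the one joining Mug2 and Mug1 0.225 CPM (30 reads, rank 391) and Plg 0.190 CPM (37 reads, rank 436). Neighbours in this order do not differ beyond their spread over libraries (SD 0.212 to 0.799 CPM), and the median over all listed circRNAs was 0.375 CPM.

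Library totals were not given and were inferred from the steps between values, with the smallest step taken as 1 read. These inferred totals ranged from 2706146 to 29164326 reads, so a single read was worth 0.370 CPM in Control 1 and 0.0343 CPM in Cirrhosis-PTH 6. Read counts and detection below are not corrected for this depth. Kng2 had 0 or 1 read in 8 of 18 libraries, Plg in 11, Mug1 in 9, the Mug2 to Mug1 junction in 10, the Crp span in 8 and Hpn in 9. A library with 0 reads still allows up to 3 reads, which is 0.103 to 1.11 CPM depending on the library. Such limits cover counting error only, as reads were counted without molecular identifiers.

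Of the 6 circRNAs, Hpn had the widest spread and the highest mean in Control, whereas Mug1 had a higher Control median (0.657 CPM). In Control its circRNA ranged from 0.204 to 2.66 CPM with a median of 0.472 (34 reads, detected in 6 of 6 libraries). The Cirrhosis libraries ranged from 0 to 0.938 with a median of 0.250 (14 reads, 4 of 6). In Cirrhosis-PTH the range was 0 to 1.05 with a median of 0.0172 (8 reads, 3 of 6). Control 2 and Control 3, with 2.66 and 2.43 CPM from 9 and 16 reads, stood above every other library, and the other 4 Control libraries overlapped with Cirrhosis. In Cirrhosis-PTH a single library, number 1, carried 6 of the 8 reads.

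Group means of Hpn were 1.08 ± 1.14 CPM (Control), 0.304 ± 0.349 (Cirrhosis) and 0.193 ± 0.421 (Cirrhosis-PTH; SD, n = 6 each). Without Cirrhosis-PTH 1 the mean of that group was 0.0218 CPM, and without Cirrhosis 1 that of Cirrhosis was 0.178. Differences were fitted with limma, a linear model applied to all 474 circRNAs together, on log2(CPM + 0.143), a scale that understates the change of low values; p-values were adjusted by Benjamini-Hochberg over all 474. For Hpn the fitted log2 difference from Control was -1.28 ± 0.73 (SE) in Cirrhosis (limma, adjusted p = 0.487) and -1.90 ± 0.73 in Cirrhosis-PTH (adjusted p = 0.688, unadjusted p = 0.00905). All 6 Cirrhosis and all 6 Cirrhosis-PTH libraries lay below the Control mean, which Control 2 and 3 raise. Leaving out Control 2 gave -0.94 and -1.56, and leaving out Control 3 gave -0.96 and -1.58. In whole liver, fewer hepatocytes and less RNA per hepatocyte cannot be told apart.

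Mug1 followed the same order of group means. Control libraries ranged from 0 to 1.78 CPM with a median of 0.657 (19 reads, detected in 5 of 6). Cirrhosis libraries ranged from 0 to 0.553 with a median of 0.118 (8 reads, 4 of 6). Cirrhosis-PTH libraries ranged from 0 to 0.257 with a median of 0.0373 (5 reads, 3 of 6). Control 1, 2, 3 and 6 were above every library of the CCl4 groups, whereas Control 7 had no read and Control 8 lay among the Cirrhosis values.

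Means of Mug1 were 0.695 ± 0.631 CPM (Control), 0.223 ± 0.259 (Cirrhosis) and 0.0817 ± 0.106 (Cirrhosis-PTH; SD, n = 6 each). Without Cirrhosis-PTH 3, the last mean was 0.0467. The fitted log2 difference from Control was -1.07 ± 0.70 in Cirrhosis (limma, adjusted p = 0.567) and -1.59 ± 0.70 in Cirrhosis-PTH (adjusted p = 0.778, unadjusted p = 0.0225, 95% interval -2.96 to -0.22). Neither passed the threshold of 0.05, although all 6 libraries of each CCl4 group lay below the Control mean. Without Control 2 the differences were -0.75 and -1.27.

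The junction of Mug2 and Mug1 did not share that order. Control libraries ranged from 0 to 0.849 CPM with a median of 0.0959 (13 reads, 3 of 6 libraries). Cirrhosis libraries ranged from 0 to 0.738 with a median of 0.293 (12 reads, 4 of 6). Cirrhosis-PTH libraries ranged from 0 to 0.472 with a median of 0 (5 reads, 2 of 6). The highest value was in Control 8, which alone had 10 of the 13 Control reads, and the groups overlapped throughout.

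Its means were 0.272 ± 0.364, 0.285 ± 0.275 and 0.118 ± 0.198 CPM in Control, Cirrhosis and Cirrhosis-PTH (SD, n = 6 each), or 0.157 in Control without Control 8 and 0.0477 in Cirrhosis-PTH without Cirrhosis-PTH 2. Relative to Control the fitted log2 difference was 0.22 ± 0.62 in Cirrhosis (-0.35 when libraries were centred on the circRNAs detected in all of them) and -0.48 ± 0.62 in Cirrhosis-PTH, and relative to Cirrhosis it was -0.70 ± 0.62 in Cirrhosis-PTH (limma, adjusted p from 0.698 to 0.943). Since the same 80 bases occur in linear Mug1, these values may hold linear reads, and their part was not tested.

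Kng2 was detected in all 3 groups at overlapping levels. Control libraries ranged from 0 to 0.888 CPM with a median of 0.319 (13 reads, 5 of 6 libraries). Cirrhosis libraries ranged from 0 to 0.776 with a median of 0.368 (14 reads, 5 of 6). Cirrhosis-PTH libraries ranged from 0 to 0.770 with a median of 0.137 (18 reads, 3 of 6). Each group had a library at 0 and a library at 0.770 CPM or more, and the deepest library, Cirrhosis-PTH 6, had 8 of the 18 reads of its group at 0.274 CPM. The means were 0.348 ± 0.305, 0.395 ± 0.331 and 0.227 ± 0.303 CPM (SD, n = 6 each), and 0.118 in Cirrhosis-PTH without Cirrhosis-PTH 3. Fitted log2 differences were 0.09 ± 0.72 for Cirrhosis against Control and -0.63 ± 0.72 for Cirrhosis-PTH against Cirrhosis (limma, adjusted p = 0.975 and 0.789); the sign of the first turned to -0.49 after the same centring.

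Plg had the lowest mean CPM of the 6, though not the fewest reads, and alone among them had its highest mean in Cirrhosis-PTH. It was detected in Control 2 and 8 alone among Control libraries, at 0.888 and 0.255 CPM (3 reads each). In Cirrhosis it was detected in libraries 1 and 2, at 0.402 and 0.424 CPM (3 and 4 reads). Cirrhosis-PTH had it in 5 of 6 libraries, from 0 to 0.480 CPM with a median of 0.237, and 14 of the 24 reads came from the deepest library. More libraries of Cirrhosis-PTH than of the other groups held a Plg read, but the highest value of all was in Control, and the groups overlapped. Means were 0.190 ± 0.357, 0.138 ± 0.213 and 0.243 ± 0.170 CPM (SD, n = 6 each), or 0.0510 in Control without Control 2 and 0.0804 in Cirrhosis without Cirrhosis 2. Relative to Control the fitted log2 difference was -0.07 ± 0.59 in Cirrhosis and 0.57 ± 0.59 in Cirrhosis-PTH (limma, adjusted p = 0.975 and 0.876), and Cirrhosis-PTH minus Cirrhosis was 0.63 ± 0.59 (adjusted p = 0.710).

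The circRNA in the Crp span was seen in every Control library, from 0.170 to 0.592 CPM with a median of 0.287 (11 reads). In Cirrhosis it ranged from 0 to 0.553 with a median of 0.250 (10 reads, 5 of 6 libraries). In Cirrhosis-PTH it was seen in libraries 1 and 5 only, at 0.526 and 0.556 CPM (3 and 7 reads). Those 2 values are near the top of the Control range, so the groups overlap even though the other 4 Cirrhosis-PTH libraries had no read. The means were 0.330 ± 0.171, 0.256 ± 0.177 and 0.180 ± 0.279 CPM (SD, n = 6 each), and 0.105 in Cirrhosis-PTH without Cirrhosis-PTH 5. Fitted log2 differences were -0.31 ± 0.70 for Cirrhosis against Control and -0.90 ± 0.70 for Cirrhosis-PTH against Control (limma, adjusted p = 0.911 and 0.876).

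**Figure D3:**
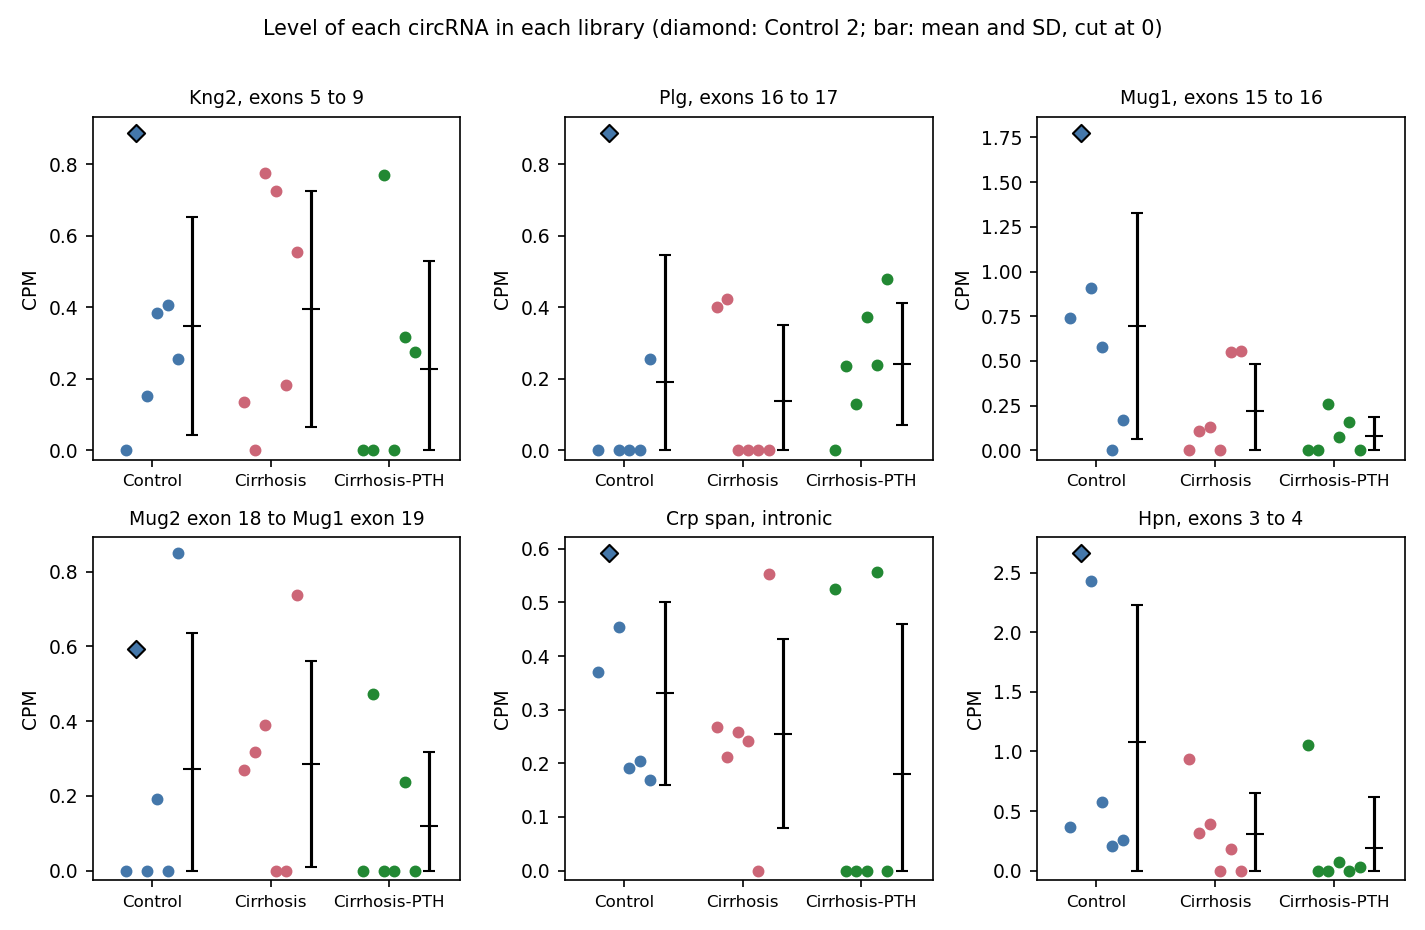
CPM of each circRNA in each library by group, with the mean and SD beside the points (bars cut at 0) and Control 2 drawn as a diamond. Control 2 is the highest library for 5 of the 6 circRNAs, and every panel has libraries at 0.

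In Cirrhosis against Control, 0 of the 6 circRNAs passed an adjusted p of 0.05 with limma, as did 0 of 474 (0%). Of all listed circRNAs 58 had an unadjusted p under 0.05, and 3.38% were lower in Cirrhosis at that level, against 0 of the 6. By sign alone 4 of 6 were fitted lower in Cirrhosis, beside 43.9% of all, and after centring on the circRNAs detected in every library 6 of 6 and 71.1% were. The median log2 difference of the 6 was -0.19 and that of all listed was 0.12. Hpn and Mug1 had the most negative values. On the recovered reads edgeR with TMM passed 0 and DESeq2 passed 1 of 474, a circRNA outside the 6.

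In Cirrhosis-PTH against Cirrhosis, which shows PTH on top of CCl4, 0 of the 6 passed with limma, as did 0% of all. An unadjusted p under 0.05 with a lower level in Cirrhosis-PTH was reached by 0 of the 6 and by 5.49% of all (34 circRNAs in either direction). Kng2, Mug1, Hpn, the Crp span and the Mug2 to Mug1 junction were fitted lower in Cirrhosis-PTH, 5 of 6, beside 58% of all (36.1% after centring, with the same 5 lower), and Plg was fitted higher. The fitted differences of Mug1, Hpn and the Crp span were -0.52, -0.62 and -0.59, each less than its SE, and after centring the 5 lower values lay between -0.19 (Mug2 to Mug1) and -0.0065 (Mug1). The median was -0.60 for the 6 and -0.17 for all listed. Both edgeR and DESeq2 passed 1 of 474 on recovered reads, which was not among the 6.

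In Cirrhosis-PTH against Control, 0 of the 6 and 0% of all passed with limma, edgeR and DESeq2. Hpn and Mug1 had an unadjusted p under 0.05 and a lower level in Cirrhosis-PTH, 2 of 6, beside 3.8% of all (25 circRNAs in either direction). By sign 5 of 6 were fitted lower, beside 50.2% of all. The median difference was -0.72 for the 6 and -0.01 for all listed. Each pair of these 3 comparisons shares a group, so the values for one circRNA are not independent of each other.

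**Figure D4:**
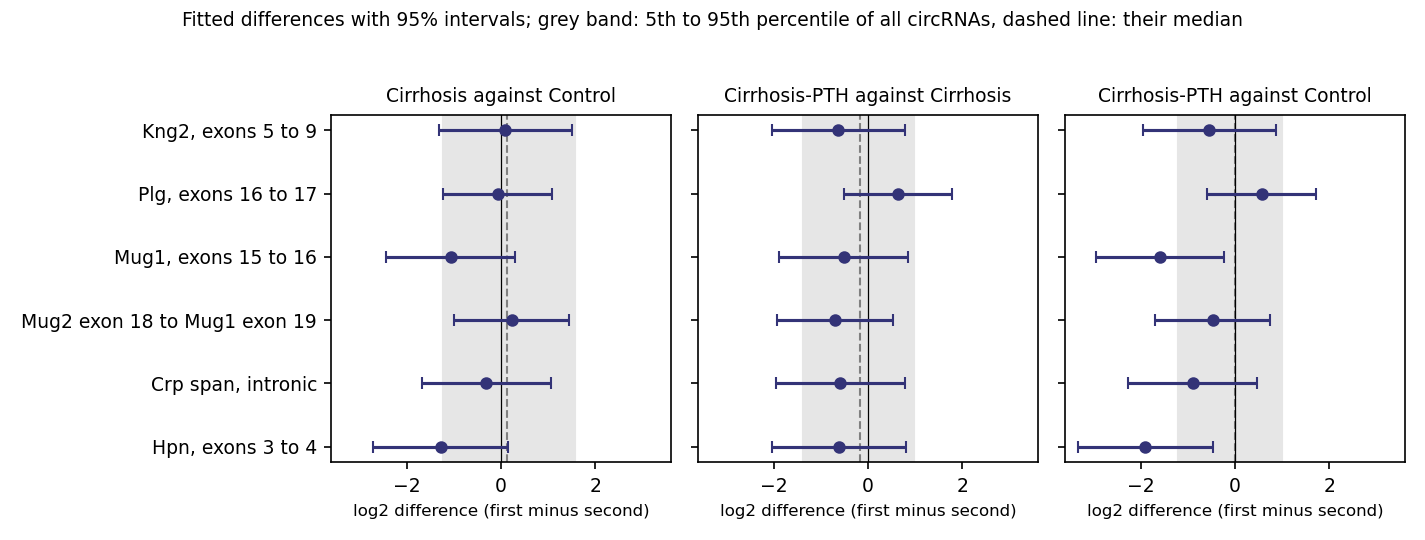
Fitted log2 difference of each circRNA (points) with its 95% interval in the 3 comparisons, over the 5th to 95th percentile of all 474 circRNAs (grey) and their median (dashed). Only the intervals of Mug1 and Hpn in Cirrhosis-PTH against Control lie below 0, before any adjustment for the number of circRNAs.

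Control 2 was the highest library for Kng2, Plg, Mug1, Hpn and the Crp span, and Control 8 for the Mug2 to Mug1 junction. The 6 circRNAs summed to 7.40 CPM in Control 2, which is 1.79% of that library's listed circRNA CPM. Sums in Control ranged from 0.816 to 7.40 CPM with a median of 1.94. Cirrhosis sums ranged from 0.913 to 2.40 with a median of 1.66, and Cirrhosis-PTH sums from 0.522 to 1.58 with a median of 0.972. The mean sum was 2.92 ± 2.43 CPM for Control, 1.60 ± 0.607 for Cirrhosis and 1.04 ± 0.439 for Cirrhosis-PTH (SD, n = 6 each), and 2.02 in Control without Control 2. Control 2 is also a shallow library, with an inferred total of 3378460 reads behind its CPM, so that its 7.40 CPM rest on 25 reads. The part of that depth in the sums was not tested. As a share of all listed circRNA CPM, the 6 held 0.476 to 1.79% in Control, 0.210 to 0.839% in Cirrhosis and 0.232 to 0.630% in Cirrhosis-PTH, ranges that overlap.

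Among themselves the circRNAs varied mostly apart. Over the 18 libraries the correlation of log2 levels was highest between the Crp span and Hpn (Pearson r = 0.51) and between Mug1 and Hpn (r = 0.45). Mug1 and the Mug2 to Mug1 junction had r = 0.17, and the other pairs ranged from -0.18 to 0.36. Over all listed circRNAs, the closest pattern to Hpn was that of Klf12 (r = 0.84), whose means were 0.556 CPM (Control), 0.137 (Cirrhosis) and 0.122 (Cirrhosis-PTH), and then Pabpn1 (r = 0.75). Mug1 was closest to Dcun1d4 (r = 0.73) and Tasp1 (r = 0.68), and the Crp span to Spred2 (r = 0.73) and Dym (r = 0.72). Kng2 was closest to Thrb (r = 0.70) and Tcf25 (r = 0.67), Plg to Vps13c and Asl (r = 0.63 each), and the Mug2 to Mug1 junction to Atxn2 (r = 0.64) and Abca1 (r = 0.60). These are descriptions over 18 libraries that share their depth and scaling, and they were picked as the highest of many.

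Other plasma protein genes were looked up among the hosts. Of 39 genes of the kallikrein-kinin system, coagulation and fibrinolysis, Kng2, Plg and F8 were hosts; F8, the gene of coagulation factor VIII, had means of 0.0997 ± 0.114 CPM (Control), 0.417 ± 0.4995 (Cirrhosis) and 0.193 ± 0.195 (Cirrhosis-PTH; SD, n = 6 each). Its fitted log2 difference was 0.73 ± 0.63 in Cirrhosis against Control (limma, adjusted p = 0.709). In that group 2 of 3 circRNAs were fitted higher in Cirrhosis than in Control and 2 of 3 lower in Cirrhosis-PTH than in Cirrhosis, and 0 passed. The pentraxin and acute-phase list of 32 genes held the Crp span alone, and the list of 33 hepatocyte proteases and inhibitors held Hpn alone. Among 40 carrier and lipoprotein genes, Pon1, which encodes an enzyme carried on high-density lipoprotein, was the 1 host, with means of 0.936 ± 0.824 CPM (Control), 0.588 ± 0.628 (Cirrhosis) and 0.899 ± 0.576 (Cirrhosis-PTH). Pon1 was fitted at -0.69 ± 0.72 in Cirrhosis against Control and at 0.81 ± 0.72 in Cirrhosis-PTH against Cirrhosis (limma, adjusted p = 0.790 and 0.698).

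The macroglobulin list of 13 genes held 5 circRNAs, and the most abundant was placed in a pseudogene. Mug-ps1, in the same cluster as Mug1 and Mug2, held 3 of them by the position of their ends. Its leading circRNA (chr6:122207897-122209106) had 236 reads and rank 37 of 474, with means of 1.32 ± 1.15 CPM (Control), 1.01 ± 0.387 (Cirrhosis) and 1.77 ± 0.934 (Cirrhosis-PTH; SD, n = 6 each). The means of the second (81 reads, rank 227) were 0.434 ± 0.390, 0.234 ± 0.218 and 0.518 ± 0.437 CPM in the same order of groups. Those of the third (17 reads, rank 470) were 0.156 ± 0.176, 0.159 ± 0.137 and 0.0513 ± 0.0796 CPM. The first 2 had their highest mean in Cirrhosis-PTH and the third its lowest, as Mug1 did. Only 1 end of the leading circRNA is at an annotated exon end, and the second has its ends at exon ends of different transcripts. The junctions of these 2 were not compared with Mug1 or Mug2, so their origin in Mug-ps1 was not tested. For the leading circRNA the fitted log2 difference was 0.74 ± 0.66 in Cirrhosis-PTH against Control (limma, adjusted p = 0.876), against -1.59 for Mug1, and the difference between the 2 circRNAs was not tested. Over the 5 circRNAs of the list, 3 were fitted higher in Cirrhosis than in Control and 3 lower in Cirrhosis-PTH than in Control, and 0 passed in any comparison.

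Of 32 complement genes, 3 were hosts of 4 circRNAs, from Cfhr3, Hc and C2. Cfhr3 encodes a factor H-related protein, and its more abundant circRNA averaged 0.723 ± 0.848 CPM (Control), 0.649 ± 0.534 (Cirrhosis) and 0.116 ± 0.248 (Cirrhosis-PTH). Hc, which encodes complement component C5, averaged 0.237 ± 0.271, 0.459 ± 0.594 and 0.118 ± 0.289 CPM, and C2 averaged 0.164 ± 0.326, 0.253 ± 0.259 and 0.373 ± 0.369 CPM in the same order. In Cirrhosis against Control 2 of the 4 were fitted higher and 2 lower, in Cirrhosis-PTH against Control 3 of 4 lower, and 0 passed.

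The table could not be used to check hepatocyte content. Of 12 hepatocyte marker genes 0 were hosts of a listed circRNA, and the same held for stellate cell, liver endothelial, cholangiocyte and erythroid markers. Of 10 macrophage and Kupffer cell markers, Adgre1 and Mertk were hosts of 3 circRNAs, whose summed level was 0 to 1.02 CPM in Control, 0.184 to 6.76 CPM in Cirrhosis and 0.149 to 1.19 CPM in Cirrhosis-PTH. Of 9 lymphocyte markers, Ikzf1 was a host. The part of other cell types in the levels of the 6 circRNAs was not tested.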

How the data were processed

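The members, gene lists and tests were chosen with earlier results of these data known. The authors deposited CPM for each circRNA and library; junctions have CIRI identifiers, per the file headers, and the total used for scaling was not given in the sources used here. GRCm38, Trim Galore, cutadapt 4.2, Bowtie2, Bowtie 1.3.1, StringTie 2.1.5 and HISAT2 2.2.1 are named, without roles, per the submitters' processing notes. Total RNA depleted of ribosomal RNA was sequenced, per the labels' protocols, and groups were taken from the titles. Of 5886 values above 0, 100% were whole reads within 0.01 once divided by the library's smallest step (794 to 8431 recovered reads per library).

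Ends were matched to GENCODE M21 and RefSeq GRCm38.p6 (Python 3.11.15, pandas 2.3.3, Biopython 1.88); positions are 1-based. Strand is that of the annotated host. The main test was limma 3.58.1 with its trend option in R 4.3.3, 1 model of all 18 libraries, 2-sided, with a pseudocount of 0.143 CPM (each library's smallest non-zero value, median taken). It was tested on simulated data. Named are all members, up to 3 circRNAs of each list with the highest mean CPM, and the 2 circRNAs most correlated with each member. Alternatives were other pseudocounts, a filter of 12 libraries, 2 other scalings, edgeR 4.0.16, DESeq2 1.42.0, the 2 groups alone, a replicate block and leaving out each library.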

Additional observations from a re-analysis of the deposited data

Results flagged for a closer look

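The highest and the lowest library were checked in 18 sets of 6 libraries (6 circRNAs in 3 groups). In 2 of 18 sets the highest library stood further from the next than Dixon's 95% criterion allows. The criterion's rate of about 1 in 20 sets is for normally distributed values. Values that rest on so few reads are not, so their chance rate is not known. The Plg circRNA in Control 2 was at 0.888 CPM, from 3 reads, and the next library of the group was at 0.255 CPM. The Hpn circRNA in Cirrhosis-PTH 1 was at 1.05 CPM, from 6 reads, with the next library at 0.0746 CPM.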

How the results depend on the processing

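With no circRNA past the threshold in the main limma test, 408 alternatives were run on the 18 member differences. No member passed in any of them (smallest adjusted p 0.182, Hpn in Cirrhosis against Control after centring), 388 kept the sign, and 15 differences kept it in all. Sizes moved more: in Cirrhosis-PTH against Control, Mug1 ranged from -2.80 (DESeq2) to -0.57 (pseudocount 1 CPM), Hpn from -2.74 to -0.69 with the same settings, and the Mug2 to Mug1 junction reached -1.93 with DESeq2. The 20 changes of sign were in Cirrhosis against Control. Kng2 turned to -0.49 after centring, -0.20 after rescaling to the summed circRNA CPM, -0.20 with edgeR and TMM, and -0.30 with DESeq2. The Mug2 to Mug1 junction turned to -0.35 after centring, -0.38 with edgeR and TMM, and -0.51 with DESeq2. With 1 library left out at a time, Kng2 ranged from -0.22 to 0.41, Plg from -0.34 to 0.36 and the Mug2 to Mug1 junction from -0.043 to 0.57; the cause was not tested. A filter of 12 libraries left no value for Plg and that junction.

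Over all circRNAs, the 0 passing in Cirrhosis against Control became 2 after centring, 1 with DESeq2 and 0 to 1 with 1 library left out (1 without Control 3). In Cirrhosis-PTH against Cirrhosis 1 passed with edgeR with TMM, edgeR without it and DESeq2, and 0 to 1 with 1 library left out (1 without Cirrhosis 1, 2 or 3). Centring moved the median of all log2 differences from 0.12 to -0.46 in the first comparison and from -0.17 to 0.34 in the second, and the share fitted lower from 43.9% to 71.1% and from 58% to 36.1%; DESeq2 gave 56.3% lower in the first.

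Replicate numbers were not taken to pair the libraries in the main test. After each circRNA's group mean was subtracted, same-numbered libraries correlated at -0.0572 to 0.0817, with 0 pairs over 0.1. The best match was the library's own number in 3 of 4 numbers for Cirrhosis against Control. It was so in 1 of 6 for Cirrhosis-PTH against Cirrhosis and in 0 of 4 for Cirrhosis-PTH against Control. The replicate block passed 0 circRNAs in each comparison and gave Plg 0.27 and the Mug2 to Mug1 junction 1.04 in Cirrhosis against Control. Over all circRNAs the median value rests on 2 reads and the median SE was 0.69; counting error and differences between mice were not separated. Leaving out the highest library moved 9 of 18 group means by over 1.5 times.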

Other observations

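A second Cfhr3 circRNA, chosen here after its values were seen, had no read in any of the 6 Cirrhosis libraries and averaged 0.502 ± 0.467 CPM in Control and 0.280 ± 0.270 CPM in Cirrhosis-PTH (SD, n = 6 each). Its fitted log2 difference was -1.69 ± 0.63 in Cirrhosis against Control (limma, adjusted p = 0.229) and 1.31 ± 0.63 in Cirrhosis-PTH against Cirrhosis (adjusted p = 0.624), neither past the threshold.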
